A study of Sus scrofa with 60 samples.

Results

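Bile acid sensing in the liver was examined through 6 genes, NR1H4, NR0B2, FGF19, FGFR4, KLB, and GPBAR1, taken by name from the 30335 named genes counted by RNA-Seq in piglet liver. NR1H4 encodes FXR, the nuclear receptor that bile acids activate inside the hepatocyte, and NR0B2 encodes SHP, a repressor that FXR induces. FGF19 is the hormone that the ileum releases when its own FXR is activated, FGFR4 is the hepatocyte receptor tyrosine kinase that binds it, and KLB (β-Klotho) is the co-receptor that this binding needs. GPBAR1 encodes TGR5, a cell surface bile acid receptor that raises cyclic AMP and that in liver is carried mainly by nonparenchymal cells and bile duct epithelium. Both arms are known to lower bile acid synthesis by repressing CYP7A1, the rate-limiting enzyme, FXR through SHP within the liver and FGF19 from the gut through FGFR4 and KLB.

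The study asked how bile duct obstruction and the route and lipid of feeding alter the liver of newborn pigs. Piglets of mixed Landrace and Hampshire breeding, male and female, were delivered preterm by cesarean section and had either the cystic and common bile ducts tied (BDL) or a sham operation, and all carried a jugular catheter. They were then fed a milk replacer by orogastric tube (ENT) or given parenteral nutrition (PN) with a soy lipid emulsion, Intralipid (SLE), or a mixed lipid emulsion, SMOFlipid (MLE), and all pigs, ENT included, had received PN on their first day. ENT pigs were then moved off PN in steps and so had some of it during the early days of the study. Livers collected at day 14 came from 12 sham and 10 BDL pigs on ENT (ENT-sham and ENT-BDL), 10 sham and 11 BDL pigs on SLE, and 9 sham and 8 BDL pigs on MLE. There was no group without surgery, so sham pigs are the controls throughout.

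A library held 14469788 to 21374161 counted reads (median 17254606). The label of liver held for every library: the 9 hepatocyte markers measured summed to between 48100 and 124000 CPM (reads per 1000000 counted reads, after TMM scaling), and none was at or under 3 counts throughout any group. One pair of libraries stood apart. ENT-sham replicate 2 and ENT-BDL replicate 1 carry opposite surgery labels, yet they differed from each other with a chi-square per degree of freedom of 2.03 over 12225 genes, against 19.2 for the next closest of 1770 pairs. For DUSP6, an ERK phosphatase that responds to growth factor signals, ENT-sham replicate 2 measured 28.7 CPM, whereas the other 11 ENT-sham pigs lay between 70.5 and 127 CPM and the other 9 ENT-BDL pigs between 17.9 and 35.7 CPM. Albumin gave the same picture, at 27300 CPM in the library labelled ENT-sham replicate 2 against 60200 to 87200 CPM in the other 11. Results on ENT pigs are therefore also given without these libraries for the members that were called, and for some of the pathway genes and markers. Shifts that are not printed can be as large, such as that of SLC51A in MLE-sham minus ENT-sham, from 0.39 to 1.23 on the log2 scale. SLE-sham replicates 9 and 10 carry 1 pig identifier. They differed by 41.1 on the same measure, against a median of 105 over all pairs. Both were kept and counted as separate pigs, which the titles leave uncertain.

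FGF19 itself was practically undetected in these livers. A single read was counted on the gene in all 60 libraries, in SLE-BDL replicate 2, so no pig exceeded 3 counts. The upper end of the central 95% exact Poisson interval was 0.00535 CPM for the 60 libraries together. By group it ran from 0.0167 CPM in ENT-sham to 0.0296 CPM in SLE-BDL. These limits cover counting error only. In a single library the floor of 3 counts corresponds to 0.14 to 0.207 CPM. Both the limits and this floor were taken on library totals without TMM scaling. Permutation tests of log2 CPM, enumerated exactly for groups under 10 pigs, gave p = 1.0 in each of the 9 comparisons between groups, and the test is void at such counts. FGF19 lies at chr2:3583027-3586985 on the plus strand of Sscrofa11.1. Of 8 markers of ileal enterocytes, the usual source of the hormone, 4 passed the count filter, and FABP6, CDX1, SI, and MUC2 did not. The 4 were VIL1, a protein of the brush border also made by other epithelia, with group means of 26.4 to 42.2 CPM, APOA4, an apolipoprotein, with 6.8 to 43.8 CPM, and LCT and CDX2, with means no higher than 1.35 CPM.

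The 5 other members were measured in every pig and entered the test, which covered 16210 genes. Corrected for gene length, which is required when different genes are set beside each other, the mean level over all pigs was 47.3 CPM per kb for FGFR4, 28.1 for NR1H4, 23.7 for NR0B2, 12.6 for KLB, and 1.75 for GPBAR1. A gene was called at an adjusted p under 0.05 in the edgeR quasi-likelihood test, at any fold change. Of 45 tests of a member between a pair of groups, 13 were called, against 13.7% of all genes in the same 9 comparisons, and 4 of the 5 tested members were called at least once, GPBAR1 being the exception. None of the called differences exceeded 1.83-fold. Comparisons in this set share groups, so calls for the same member in several of them are not separate evidence.

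**Figure D1:**
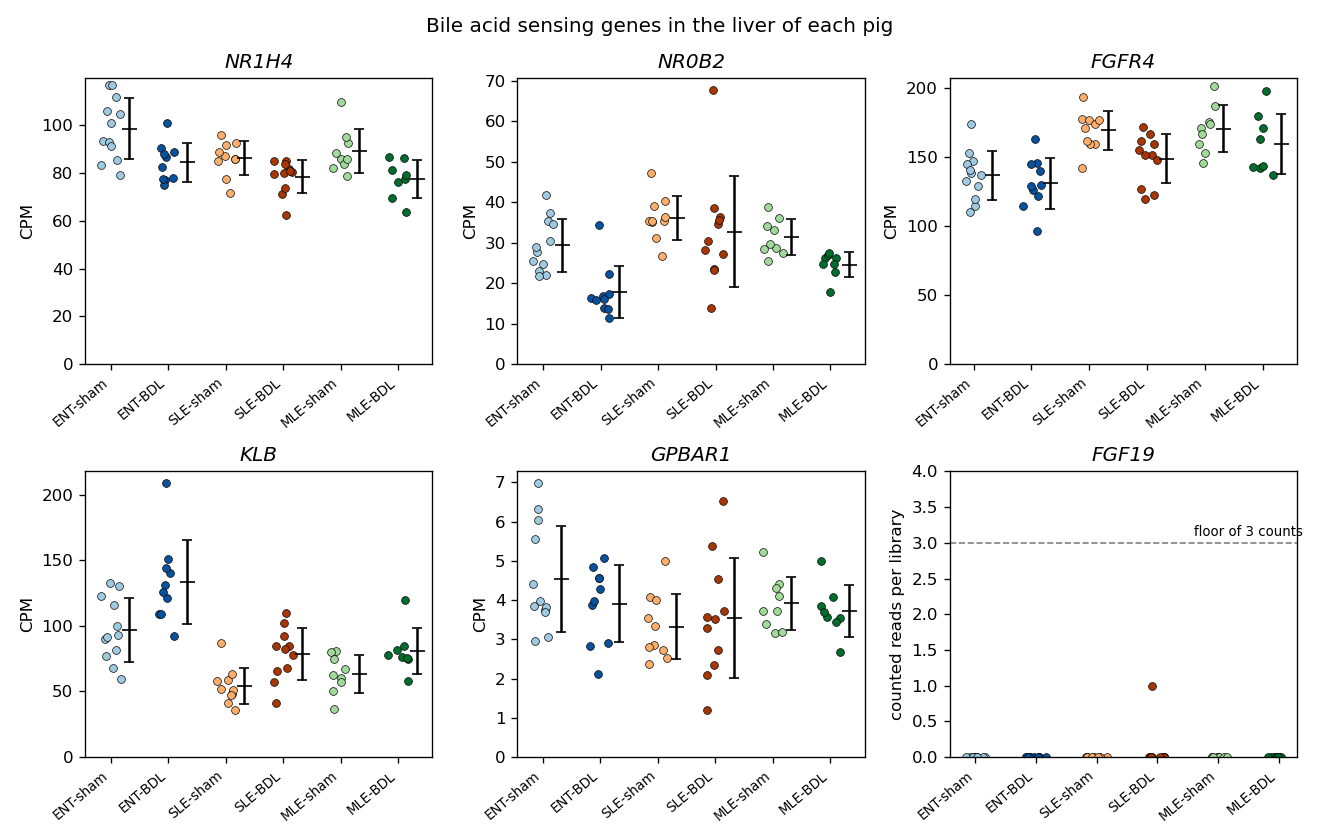
Level of each gene in each pig, in CPM for 5 genes (y axis from 0) and in counted reads for FGF19, by group on the x axis; each point is 1 pig, and the bar beside the points of the 5 genes in CPM is the mean with its SD. KLB is highest in ENT-BDL and lowest in SLE-sham, NR0B2 is lowest in ENT-BDL, and FGF19 has 1 read in 1 of 60 libraries, below the dashed floor of 3 counts.

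BDL was first compared with sham within each diet, which asks how the sensing genes respond to obstruction. On the ENT diet 3 of 5 members were called, NR0B2 and NR1H4 lower and KLB higher, where 17.4% of all tested genes were called (8.89% higher and 8.53% lower). On SLE 1 of 5 was called, KLB higher, against 4.54% of all genes (2.97% higher and 1.57% lower). On MLE 0 of 5 were called, against 14.4% of all genes (7.85% higher and 6.58% lower), with 3 of the 5 (NR1H4, NR0B2, and KLB) at an unadjusted p under 0.05, as were 27.8% of all genes. DESeq2 called 1 of 5 on MLE, NR1H4.

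NR0B2, the SHP gene at chr6:84225670-84228156 (plus strand), changed most with BDL among the members on ENT. In ENT-sham it measured 21.8 CPM in the lowest pig, 28.2 at the median, and 41.8 in the highest, and in ENT-BDL 11.3, 16.1, and 34.3 CPM. Of the 10 ENT-BDL pigs, 8 lay below every ENT-sham pig, and the 2 that did not were replicate 1 (22.3 CPM) and replicate 2 (34.3 CPM). NR0B2 mRNA fell in ENT-BDL by 0.72 on the log2 scale (SE 0.16, 95% CI -1.04 to -0.41, edgeR adjusted p = 5.6e-04). Without the 2 matching libraries it fell by 0.79 (adjusted p = 2.75e-04). SHP is a target of FXR, and its level here was lower, not higher, in the obstructed ENT livers.

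On SLE the 2 groups overlapped. SLE-sham pigs ranged from 26.6 to 47.2 CPM of NR0B2 (median 35.3), and SLE-BDL pigs from 13.8 to 67.7 CPM (median 30.3). Both the lowest and the highest of these 21 pigs were in SLE-BDL, the highest being replicate 7, and the next SLE-BDL pig had 38.6 CPM. The change was -0.15 (SE 0.16, 95% CI -0.46 to 0.16, adjusted p = 0.671). It ran from -0.32 to -0.07 when each pig was left out in turn, and was called in none of these fits. MLE-sham pigs ranged from 25.5 to 38.8 CPM (median 29.6) and MLE-BDL pigs from 17.8 to 27.4 CPM (median 25.3), with 4 of the 8 MLE-BDL pigs below every MLE-sham pig. That difference of -0.35 (SE 0.17) did not pass the test (adjusted p = 0.178), although edgeR on these 2 groups alone gave an adjusted p of 0.0111.

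An interaction term asked whether diet altered the NR0B2 response itself. The SLE response minus the ENT response was 0.57 (SE 0.22, 95% CI 0.14 to 1.01, adjusted p = 0.164), which did not pass, and without ENT-BDL replicate 2, the pig with 34.3 CPM, it was 0.73 with an adjusted p of 0.0405. It was 0.64 without the matching libraries (adjusted p = 0.0959). MLE minus ENT gave 0.37 (adjusted p = 0.681) and MLE minus SLE -0.20 (adjusted p = 0.861). No member was called in any of the 3 interactions, in which 2.33%, 0.0617%, and 0.265% of all tested genes were called, in that order.

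NR1H4, the FXR gene at chr5:83607222-83732668 (minus strand), varied little. It measured 79.4 to 117 CPM in ENT-sham (median 97.2) and 75.0 to 101 CPM in ENT-BDL (median 84.5), and 4 of 10 ENT-BDL pigs lay below all ENT-sham pigs. The fall of 0.22 on the log2 scale (SE 0.07, adjusted p = 0.012), or 14.4%, was called, and was 0.24 without the matching libraries (adjusted p = 0.00578). SLE-sham and SLE-BDL pigs overlapped broadly, with medians of 86.6 and 80.7 CPM and a change of -0.13 (95% CI -0.27 to -0.00, adjusted p = 0.272). In MLE the medians were 86.1 and 78.5 CPM. Here the change of -0.20 (SE 0.07) had an adjusted p of 0.0597, which moved to 0.0396 with DESeq2 and to 0.0415 without the matching libraries.

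Hepatocyte and bile duct markers moved with BDL beside these receptors. On ENT, 5 of 9 hepatocyte markers were lower (median log2 change of the list -0.27, their summed level at a median of 110000 CPM in sham and 64100 CPM in BDL), on SLE 0 of 9, and on MLE 7 of 9 (median -0.57, 91000 and 57500 CPM). Cholangiocyte markers were higher for 5 of 10, 1 of 10, and 6 of 10 genes, with summed medians of 148 and 323 CPM on ENT, and 225 and 377 on MLE. On SLE the sums ran from 236 to 405 CPM in sham (median 325) and from 285 to 468 CPM in BDL. In SLE-sham most of the sum came from CLDN4 and SPP1, with means of 127 and 112 CPM. The keratins of bile duct cells on the list were not alike. KRT7 was at 6.33 CPM in SLE-sham, 4.63 in ENT-sham, and 17.2 in ENT-BDL. KRT19 was at 24.8 CPM in SLE-sham, 10.3 in ENT-sham, and 26.2 in ENT-BDL. The part of the hepatocyte and bile duct markers in the NR0B2 and NR1H4 values was not tested. In bulk tissue fewer cells of a type and less RNA per cell cannot be told apart. Macrophage markers were called for 2 of 11 genes on ENT, 2 of 11 on SLE, and 3 of 11 on MLE. Sinusoidal endothelial markers were called for 2, 0, and 2 of 9, and stellate cell markers for 2, 2, and 3 of 8. Over all tested genes the shares called on the 3 diets were 17.4%, 4.54%, and 14.4%. Without the matching libraries the ENT counts were 5 of 11 macrophage markers (1 higher and 4 lower), 3 of 9 sinusoidal, and 3 of 8 stellate markers, and 3 of 10 cholangiocyte markers were called on SLE.

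KLB, the co-receptor gene at chr8:30653434-30696123 (plus strand), rose with BDL on ENT and SLE and was not called on MLE. ENT-sham pigs measured 59.3 to 133 CPM (median 92.2), with the library labelled ENT-sham replicate 2 the highest, and ENT-BDL pigs 92.3 to 209 CPM (median 128). Of the ENT-BDL pigs 4 of 10 exceeded every ENT-sham pig. The rise was 0.46 on the log2 scale (SE 0.15, adjusted p = 0.0205), 0.51 without the matching libraries (adjusted p = 0.0115), and 0.37 without ENT-BDL replicate 5, the pig with 209 CPM, when it no longer passed (adjusted p = 0.0717).

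Among SLE pigs KLB ran from 36.1 to 86.6 CPM in sham (median 51.5) and from 40.9 to 110 CPM in BDL (median 82.7), and only 3 of 11 BDL pigs lay above all sham pigs. The rise of 0.54 (SE 0.15, adjusted p = 0.0259) was called in the full set. It did not pass with the identifier number of the sample titles as a block (0.47, adjusted p = 0.0742) or in edgeR on these 2 groups alone (adjusted p = 0.0589). The call was also lost when SLE-sham replicate 5, SLE-sham replicate 10, SLE-BDL replicate 1, or SLE-BDL replicate 4 was left out (adjusted p up to 0.0577). SLE-sham replicate 10 is 1 of the 2 libraries that carry the same pig identifier. MLE pigs gave 36.9 to 80.6 CPM in sham (median 62.7) and 58.0 to 120 CPM in BDL (median 77.1), a change of 0.36 (SE 0.17, 95% CI 0.03 to 0.69) that was not called (adjusted p = 0.144). The KLB responses on different diets were not distinguished, since their interactions lay between -0.18 and 0.08 with adjusted p values of 0.87 or higher.

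Part of the KLB gene is shared with another. The last 2926 bases of its span overlap RPL9, a ribosomal protein gene on the opposite strand that covers chr8:30693198-30699189. How many of them are exonic was not analysed here, and they could make up as much as 43.4% of the 6747 bases given as the length of KLB. No source used here states that strand was used in counting, so reads from the shared stretch cannot be told apart. RPL9 did not pass the test in any of the 3 BDL comparisons (0.28, 0.04, and 0.14, adjusted p = 0.0603, 0.897, and 0.497) and was lower in SLE-BDL than in ENT-BDL (-0.36, adjusted p = 0.0162). Over the 60 pigs KLB and RPL9 had a Spearman correlation of 0.27, and of 0.0 once group means were subtracted.

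FGFR4, the receptor gene at chr2:80841536-80853791 (minus strand), did not pass the test with BDL on any diet. ENT-sham pigs had 110 to 174 CPM (median 138) and ENT-BDL pigs 96.4 to 163 CPM (median 129), with a change of -0.06 (95% CI -0.21 to 0.09, adjusted p = 0.642), or -0.07 without the matching libraries. On SLE the medians were 172 and 152 CPM, with 3 of 11 BDL pigs below all sham pigs and a change of -0.19 (95% CI -0.34 to -0.03, adjusted p = 0.169). MLE medians were 171 and 154 CPM (change -0.09, 95% CI -0.27 to 0.08, adjusted p = 0.522). These intervals allow a fall of up to 0.34 on the log2 scale and a rise of at most 0.09. MIR7138 lies within FGFR4 on the same strand and spans 59 bases.

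GPBAR1 (TGR5), at chr15:120336196-120339506 on the plus strand, was the scarcest member that could be measured, with 18 to 131 counts per library. Group medians ran only from 3.09 CPM in SLE-sham to 4.12 CPM in ENT-BDL, and the pigs with the lowest (1.2 CPM) and next to highest values (6.53 CPM) were both in SLE-BDL. The difference of BDL from sham was -0.21 on ENT (95% CI -0.56 to 0.14, and -0.26 without the matching libraries), 0.10 on SLE (-0.27 to 0.46), and -0.07 on MLE (-0.47 to 0.33), none of which passed. Relay genes downstream of TGR5 were called for 2 of 9 on ENT, 0 of 9 on SLE, and 1 of 9 on MLE, all lower. These counts lie near the shares of all tested genes called, 17.4%, 4.54%, and 14.4%. ADCY9, an adenylyl cyclase, fell by 0.41 (adjusted p = 0.00117) and by 0.45 (adjusted p = 0.00217) on ENT and MLE.

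**Figure D2:**
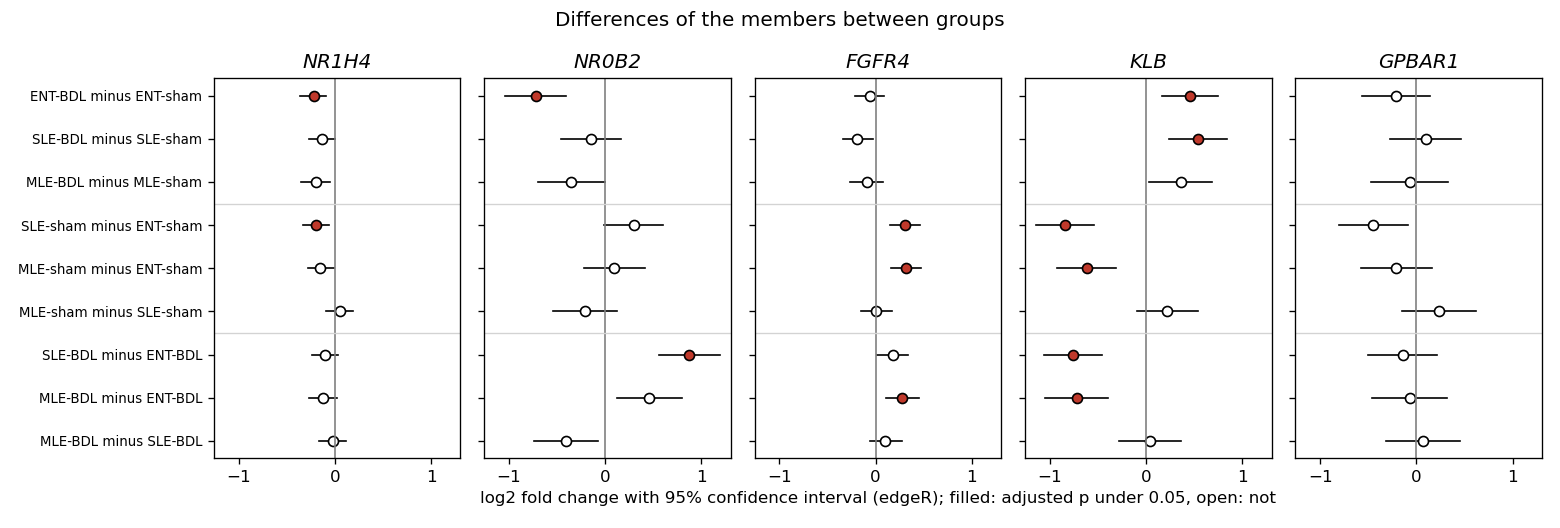
Log2 fold change (x axis) of each measured member in the 9 comparisons between groups (y axis), with its 95% confidence interval from edgeR; filled points have an adjusted p under 0.05. KLB lies above 0 in BDL against sham and below 0 in PN against ENT, and no GPBAR1 point is filled.

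Feeding route was compared next, within sham and within BDL, which sets PN on either lipid beside enteral feeding. The identifier numbers in the sample titles are spread unevenly over diets: 12 ENT-sham and 9 MLE-sham pigs have only 2 numbers in common, held by 2 and 4 of them, and 10 ENT-BDL and 8 MLE-BDL pigs have 3, held by 3 and 5. What a number stands for is not given in the sources used here, so diet can be told apart from it only in part. Among sham pigs, SLE differed from ENT in 3 of 5 members (KLB and NR1H4 lower, FGFR4 higher) where 27.5% of all tested genes were called (13.9% higher and 13.6% lower). MLE differed from ENT in 2 of 5 (KLB lower, FGFR4 higher), with 21.1% of genes called (10.7% higher and 10.4% lower). Among BDL pigs, SLE differed from ENT in 2 of 5 (NR0B2 higher, KLB lower; 19.6% of genes, 10.4% higher and 9.17% lower), and MLE in 2 of 5 (FGFR4 higher, KLB lower; 16.8% of genes, 8.53% higher and 8.27% lower). With the identifier number as a block all 9 of these calls remained.

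Markers of cell types differed between these groups too. In SLE-sham against ENT-sham, 3 of 9 hepatocyte markers were lower (summed medians 81800 and 110000 CPM), 3 of 10 cholangiocyte markers higher, and 5 of 11 macrophage markers called (2 higher and 3 lower). MLE-sham against ENT-sham called 1 of 9, 2 of 10, and 1 of 11 of these lists. In BDL pigs the counts were 2, 1, and 2 for SLE and 1, 2, and 0 for MLE. Sinusoidal markers were called for 0 to 2 of 9 and stellate markers for 0 to 1 of 8. Over all tested genes the shares for SLE and MLE were 27.5% and 21.1% in sham, and 19.6% and 16.8% in BDL pigs. Without the matching libraries the counts rose for macrophage and cholangiocyte markers in SLE-sham (7 of 11 and 4 of 10), hepatocyte markers in MLE-sham and MLE-BDL (2 of 9 each), cholangiocyte markers in MLE-sham (3 of 10) and SLE-BDL (2 of 10), and stellate markers in both PN sham groups (2 of 8 each) and MLE-BDL (1 of 8). Their part in the differences of the members was not tested.

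KLB was lower in PN livers in all 4 of these comparisons. Sham pigs on SLE (median 51.5 CPM) and MLE (62.7 CPM) lay under ENT-sham (92.2 CPM), with 8 of 10 SLE-sham and 3 of 9 MLE-sham pigs below all 12 ENT-sham pigs. It fell by 0.84 on the log2 scale for SLE (SE 0.15, adjusted p = 1.3e-05) and by 0.61 for MLE (SE 0.15, adjusted p = 0.00214). Within BDL, 9 of 11 SLE-BDL and 7 of 8 MLE-BDL pigs lay below all ENT-BDL pigs, and KLB fell by 0.76 (SE 0.15, adjusted p = 1.5e-04) and by 0.72 (SE 0.16, adjusted p = 0.00114). Leaving out both matching libraries gave values from -0.79 to -0.57, all called. The order of group means, ENT-BDL (133 CPM), ENT-sham (96.8), MLE-BDL (81.0), SLE-BDL (78.7), MLE-sham (63.2), and SLE-sham (54.2), had only 1 gap beyond the larger SD of its neighbours, that between ENT-BDL and ENT-sham.

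FGFR4 moved the other way with PN. Its medians in SLE-sham and MLE-sham were 172 and 171 CPM against 138 CPM in ENT-sham, and 5 of 10 SLE-sham and 3 of 9 MLE-sham pigs exceeded every ENT-sham pig. The receptor mRNA rose by 0.31 (SE 0.08, adjusted p = 0.00152) and by 0.32 (SE 0.08, adjusted p = 0.00204). Without the matching libraries these were 0.30 and 0.31, both called. In BDL pigs it was 0.28 higher with MLE than with ENT (SE 0.08, adjusted p = 0.0138), with 4 of 8 MLE-BDL pigs above all ENT-BDL pigs. It was 0.28 without the matching libraries (adjusted p = 0.0217). That call was lost without MLE-BDL replicate 1, the pig with 198 CPM (adjusted p = 0.0545), and in edgeR on these 2 groups alone (0.27, adjusted p = 0.0667). SLE-BDL against ENT-BDL gave 0.18 (95% CI 0.02 to 0.34, adjusted p = 0.0929). Receptor and co-receptor of the same complex thus differed between PN and ENT sham livers in opposite directions.

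NR0B2 in BDL livers was higher on SLE than on ENT. It measured a median of 30.3 CPM in SLE-BDL and 25.3 CPM in MLE-BDL against 16.1 CPM in ENT-BDL. Of 11 SLE-BDL pigs 5 lay above every ENT-BDL pig, and the ranges overlapped. NR0B2 was 0.87 higher on the log2 scale in SLE-BDL than in ENT-BDL (SE 0.16, 1.83-fold, adjusted p = 4.54e-05), and 0.91 higher without the matching libraries. In MLE-BDL the difference was 0.46 (SE 0.17, adjusted p = 0.0501), just short of the threshold, and it passed without the matching libraries (0.50, adjusted p = 0.0406) and with the identifier block (0.53, adjusted p = 0.0488). Among sham pigs SLE minus ENT was 0.30 (95% CI -0.01 to 0.60, adjusted p = 0.145), which was called in edgeR on these 2 groups alone (0.29, adjusted p = 0.0471), and MLE minus ENT 0.09 (95% CI -0.22 to 0.41, adjusted p = 0.733).

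NR1H4 was lower by 0.19 in SLE-sham than in ENT-sham (SE 0.07, adjusted p = 0.0219), with 2 of 10 pigs below all ENT-sham pigs, and by 0.22 without the matching libraries. The call was lost without ENT-sham replicate 8 or SLE-sham replicate 4, with adjusted p values up to 0.053. MLE-sham was 0.15 lower (95% CI -0.28 to -0.01, adjusted p = 0.121), or 0.18 lower without the matching libraries, which was called (adjusted p = 0.047). GPBAR1 in SLE-sham was at -0.45 against ENT-sham (SE 0.18, adjusted p = 0.055), which was not called, and at -0.47 without the matching libraries (adjusted p = 0.0481). It was also called, at adjusted p values of 0.0437 to 0.0497, with RLE normalization, with at least 10 counts in every pig, in edgeR on these 2 groups alone, and in DESeq2, and was at -0.20 with the identifier block (adjusted p = 0.497).

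The 2 lipid emulsions were not distinguished in these genes. MLE-sham against SLE-sham called 0 of 5 members, as 0.999% of all genes were called (0.37% higher and 0.629% lower), and MLE-BDL against SLE-BDL 0 of 5, with 0.907% of all genes (0.216% higher and 0.691% lower). By unadjusted p, 0 of 5 and 1 of 5 (NR0B2) were under 0.05, as were 11.3% and 13% of all genes, and DESeq2 called none. The widest difference was that of NR0B2 in BDL pigs, -0.41 (95% CI -0.74 to -0.07, adjusted p = 0.255). For KLB the intervals were -0.09 to 0.54 in sham and -0.28 to 0.36 in BDL, and for NR1H4 -0.09 to 0.19 and -0.16 to 0.12, so shifts inside them cannot be told from none here.

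Genes that lie downstream of FXR in the liver did not move as 1 group. Of 15 tested genes that FXR is known to induce, 6 were called with BDL on ENT (4 higher and 2 lower, list median -0.06). On SLE 1 was called (lower), and on MLE 7 (3 higher and 4 lower, median 0.03). Over all tested genes 17.4%, 4.54%, and 14.4% were called. The basolateral bile acid exporter OSTα/OSTβ made up part of the rises, SLC51A by 2.10 on ENT and 2.33 on MLE (adjusted p = 0.00683 and 0.00935) and SLC51B 2.98-fold and 2.47-fold (adjusted p = 2.29e-04 and 0.00793). ABCB11, the canalicular bile salt export pump, rose by 0.57 on ENT (adjusted p = 0.00948) and was at 0.03 on MLE. ABCB4, the phospholipid exporter, rose by 1.71 on ENT (adjusted p = 7.47e-06) and by 1.11 on MLE (adjusted p = 0.00865). The smallest adjusted p values of the list on MLE were those of falls, FBXO21 (-0.44, adjusted p = 2.94e-04) and KNG1 (-0.38, adjusted p = 0.00494). The gene called lower on SLE was APOC2 (-0.31, adjusted p = 0.0449). On ENT the mean of OSGIN1 was 133 CPM in sham (SD 88.5) and 51.2 CPM in BDL (SD 24.4). On SLE the same transporters had values of 1.07 (SLC51A), 0.34 (SLC51B), -0.17 (ABCB11), and 0.41 (ABCB4), none called. The SLC51A medians there ran the other way, 6.89 CPM in sham and 5.59 CPM in BDL, with the highest SLE-BDL pig at 118 CPM. Without the matching libraries the ENT values were 2.92 for SLC51A (adjusted p = 1.97e-04), 1.86 for SLC51B, 0.64 for ABCB11, and 1.91 for ABCB4, all called. Whether the responses on SLE and ENT differed depended on those libraries. None of the 15 genes was called in that interaction with them, and 3 were without them, ABCB11 (-0.81, adjusted p = 0.03), ABCB4 (-1.5, adjusted p = 0.0126), and SLC51B (-1.53, adjusted p = 0.0265). Thus NR0B2 fell in ENT-BDL livers in which SLC51A, SLC51B, and ABCB11 rose.

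SLE-sham livers already carried more of the exporter than ENT-sham livers. SLC51A was higher by 2.53 (adjusted p = 5.48e-04) and SLC51B by 1.26 (adjusted p = 0.00154), 2 of 8 called genes among the 15 (5 higher and 3 lower). The library labelled ENT-sham replicate 2 had 8.54 CPM of SLC51A, whereas the other 11 ENT-sham pigs had 0.373 to 1.65 CPM, and without the matching libraries the differences were 3.37 and 1.53 (adjusted p = 1.05e-05 and 9.54e-05). Medians of SLC51B were 9.38 CPM in ENT-sham and 29.6 CPM in SLE-sham, with overlap of the ranges, 4.74 to 34.8 and 8.43 to 52.6 CPM. In MLE-sham, with a median of 11.9 CPM, SLC51B differed from ENT-sham by 0.27 (adjusted p = 0.599), or 0.54 without those libraries (adjusted p = 0.225). SLC27A5, which activates bile acids for conjugation, was lower in both PN sham groups, by -1.84 for SLE and -1.61 for MLE (adjusted p = 3.13e-07 and 1.39e-05).

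CYP7A1, on which the FXR and FGF19 arms converge, changed widely with both BDL and PN. Its median was 5.56 CPM in ENT-sham and 65.8 CPM in ENT-BDL, 0.497 and 4.5 CPM in SLE, and 0.335 and 3.23 CPM in MLE. It rose with BDL by 2.52 (SE 0.54, adjusted p = 5.1e-04), 3.51 (SE 0.69, adjusted p = 0.00155), and 2.84 (SE 0.83, adjusted p = 0.014), and by 3.06 on ENT without the matching libraries. Against ENT it was lower in all PN groups, by -3.86 and -4.64 in sham and -2.87 and -4.31 in BDL pigs for SLE and MLE, all called. Without the matching libraries these were -3.38 and -4.16 in sham and -2.93 and -4.37 in BDL pigs, also called. Up to 3 pigs of a PN sham group were at or under 3 counts. CYP8B1, the sterol 12α-hydroxylase, never exceeded 41 counts and was at or under 3 counts in 11 of 12 ENT-sham and 9 of 11 SLE-BDL pigs, so its called rises of 2.28 on ENT (3.25 without the matching libraries) and 2.60 on MLE rest on few reads. Of the 5 tested genes of synthesis and uptake, 3 were called with BDL on ENT, 1 on SLE, and 2 on MLE, all higher.

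The partners of FXR were examined next. Of 16 tested partners and coregulators, 4 were lower with BDL on ENT, 0 were called on SLE, and 1 was higher and 2 lower on MLE. As shares of the list these are 25.0%, 0.0%, and 18.8%, near the 17.4%, 4.54%, and 14.4% of all tested genes. RXRA, the obligate heterodimer partner, fell by 0.37 in ENT-BDL (adjusted p = 0.00858) and was at -0.09 and -0.12 on SLE and MLE. NR5A2 (LRH-1), through which SHP acts on CYP7A1, fell by 0.27 on ENT (adjusted p = 0.0121) and by 0.38 on MLE (adjusted p = 0.0019). HNF4A lay between -0.07 and 0.11 in the 3 BDL comparisons, none called.

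Genes that report signalling from FGF receptors were also tested. Of 11 feedback and output genes, 9 were called with BDL on ENT (2 higher and 7 lower, median -0.48), 2 on SLE (1 higher and 1 lower, median -0.16), and 9 on MLE (3 higher and 6 lower, median -0.37). Without the matching libraries the ENT count was 10 of 11, with DUSP6 at -1.93 and SPRY4 at -1.77. DUSP6 fell by 1.83 on ENT (SE 0.20, adjusted p = 4.54e-09), and its medians after BDL were 29.0 CPM in ENT-BDL, 24.9 in SLE-BDL, and 22.5 in MLE-BDL, against sham medians of 101, 30.3, and 51.7 CPM. SPRY4, an inhibitor of receptor tyrosine kinase signalling, fell by 1.61 on ENT (adjusted p = 6.28e-08). Other genes of the list had higher means after BDL. DUSP5 was at 5.02 CPM in MLE-sham and 19.6 CPM in MLE-BDL, and IER3 at 3.89 CPM in ENT-sham and 9.5 CPM in ENT-BDL. The DUSP6 response differed between SLE and ENT by 1.47 in the interaction test (adjusted p = 0.00141). These genes answer to other growth factor receptors too, and which receptor drove them was not tested. The relay genes from FRS2 to ERK were called for 5 of 12 on ENT (3 higher and 2 lower), 0 of 12 on SLE, and 3 of 12 on MLE. The shares of all tested genes in these BDL comparisons were 17.4%, 4.54%, and 14.4%.

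Other receptors and ligands of the family were measured beside the members. Of 5 further FGF receptors and co-receptors, 3 were called with BDL on ENT, 0 on SLE, and 2 on MLE, among them FGFRL1, a receptor lacking the kinase domain, which fell by 0.70 on ENT (adjusted p = 1.97e-05). FGF21, the hepatic hormone that also signals through KLB, was not called with BDL (0.61, 0.31, and 0.65), and was higher in SLE than in ENT pigs, by 1.39 in sham (adjusted p = 4.26e-05) and by 1.09 in BDL (adjusted p = 0.00238). For MLE against ENT it was called only without the matching libraries, at 0.81 in sham (adjusted p = 0.0278) and 0.80 in BDL (adjusted p = 0.0459). Its medians were 2.99 CPM in ENT-sham and 10.1 CPM in SLE-sham, where KLB was lower. FGF23 was higher with BDL on SLE (2.18, adjusted p = 0.00608), from a median of 3.16 to 5.26 CPM with 1 SLE-BDL pig at 69.4 CPM. Of 6 other bile acid sensors, 3 were called with BDL on ENT (2 higher and 1 lower), 0 on SLE, and 4 on MLE (2 higher and 2 lower). VDR, the vitamin D receptor, rose with BDL by 2.16 on ENT and 3.50 on MLE (adjusted p = 0.00164 and 9.22e-05) from means of 0.217 and 0.118 CPM, with 2.93 on ENT without the matching libraries, and S1PR2 by 0.70 and 0.84 (adjusted p = 0.00767 and 0.00576). NR1I3 (CAR), a xenobiotic receptor, fell with BDL on ENT and MLE by 0.68 and 0.79 (adjusted p = 0.0363 and 0.0436), and was lower in SLE-sham and MLE-sham than in ENT-sham by -1.35 and -1.41 (adjusted p = 1.39e-05 and 2.48e-05).

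**Figure D3:**
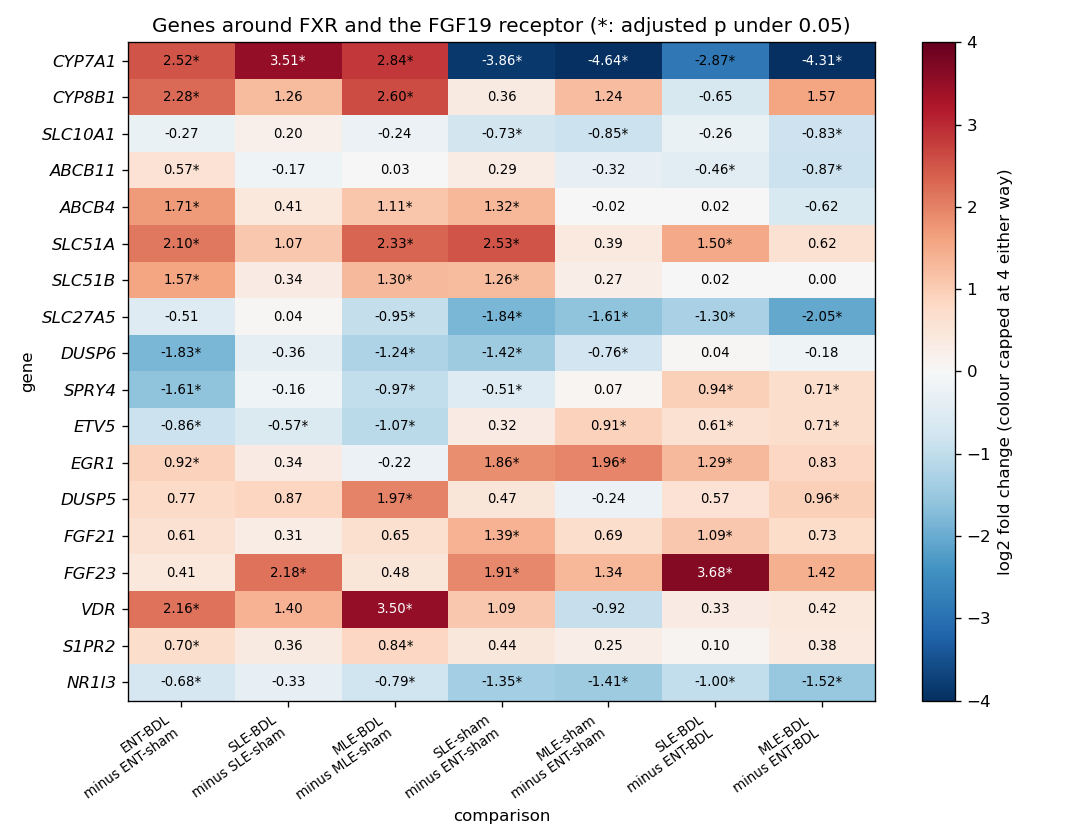
Log2 fold change of 18 genes around FXR and the FGF19 receptor (rows) in 7 comparisons (columns), as printed in each cell and coloured from blue (lower) to red (higher); an asterisk marks an adjusted p under 0.05. CYP7A1 is higher in each BDL column and lower in each PN against ENT column, whereas SLC51A, SLC51B, DUSP6, and SPRY4 have no asterisk in the SLE BDL column.

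Pigs were then compared within groups, by subtracting group means from log2 CPM and correlating the remainders over the 60 pigs for 6 pairs of genes. Both pairs with FGF19 that had been planned could not be computed at 1 read. KLB and CYP7A1 correlated at Pearson's r = 0.39 (permutation p = 0.0047, adjusted p = 0.028) and Spearman's rho = 0.34 (permutation p = 0.015, adjusted p = 0.093). Without the 2 pigs farthest in KLB r was 0.37, and without the matching ENT libraries 0.35, which did not pass (permutation adjusted p = 0.072). By group r ranged from -0.24 in SLE-sham to 0.80 in ENT-sham and was negative in 3 of 6 groups, so the relation did not hold in every group.

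The other pairs did not pass, and each of them was negative in 2 or 3 of the 6 groups. NR0B2 and CYP7A1, repressor and target, gave r = -0.26 (rho -0.19, permutation adjusted p = 0.15 and 0.37), with r from -0.54 in ENT-BDL to 0.38 in MLE-sham. NR0B2 with SLC51B gave 0.18 (rho 0.22, adjusted permutation p = 0.28 and 0.36), and with ABCB11 0.26 (rho 0.03, 0.25 and 0.81), which was -0.04 without the 2 farthest pigs. By group the former ran from -0.21 in ENT-sham to 0.98 in the 8 MLE-BDL pigs, and the latter from -0.69 in MLE-sham to 0.49 in SLE-BDL. KLB with its partner FGFR4 gave 0.07 (rho 0.08) and NR1H4 with NR0B2 0.05 (rho 0.09), with adjusted permutation p values of 0.72 or 0.73. Their r by group ran from -0.48 in SLE-sham to 0.63 in SLE-BDL and from -0.39 in SLE-BDL to 0.52 in ENT-sham.

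**Figure D4:**
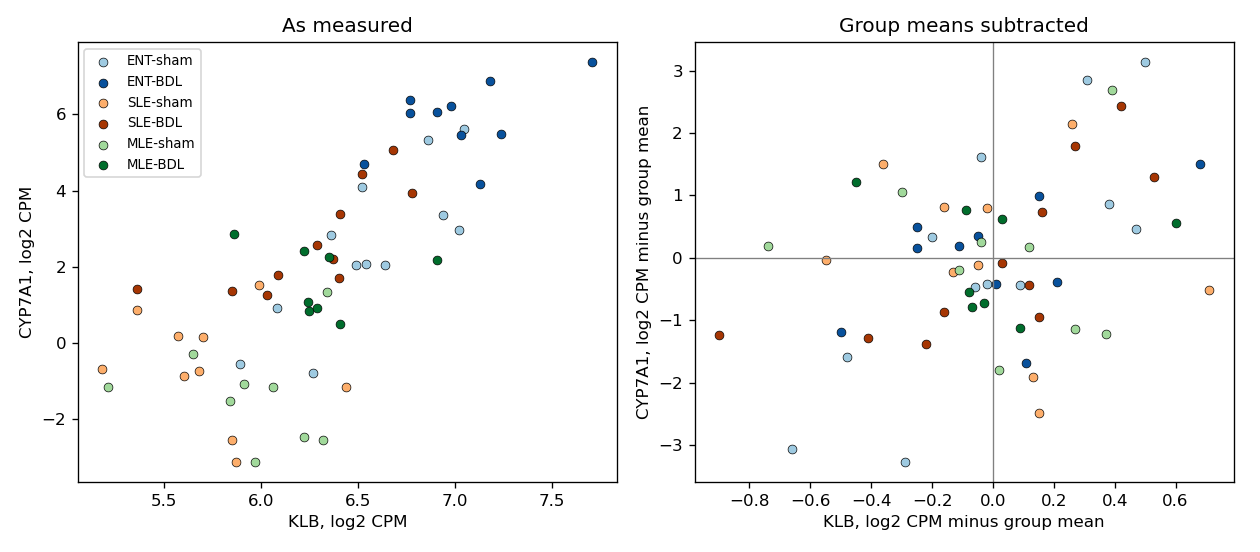
KLB (x axis) against CYP7A1 (y axis), both in log2 CPM with a prior count of 2, for 60 pigs coloured by group; at left as measured and at right after each group's mean was subtracted. At left ENT-BDL pigs occupy the upper right and PN sham pigs the lower left, and at right the points scatter widely, with r = 0.39.

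The genes whose levels followed each member most closely over all 60 pigs were sought among 10784 genes, as a description. For NR0B2 these were CREB3L3, a liver transcription factor of the fasting response (Spearman 0.72, and 0.31 after group means were removed), BFAR (0.65 and 0.43), and CDKN1A, a cell cycle inhibitor (0.61 and 0.44). NR1H4 ran with EHBP1 (0.75 and 0.46), HSD17B13, a lipid droplet protein of hepatocytes (0.72 and 0.47), and CLPX (0.72 and 0.34). FGFR4 ran with ZNF787 (0.75 and 0.41), SLC25A1, the mitochondrial citrate carrier (0.75 and 0.50), and FBXO17 (0.73 and 0.50).

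KLB was closest to AGO4 (0.77 and 0.40), UBXN2B (0.74 and 0.26), and RFC1 (0.70 and 0.52). RFC1, a subunit of the clamp loader in DNA replication, is a neighbour of KLB and ends 17.5 kb before it on chromosome 8. GPBAR1 had lower values, with PDE4A, which degrades cyclic AMP (0.64 and 0.50), MCRIP1 (0.62 and 0.43), and BMP1 (0.62 and 0.54). Between members the strongest relation was inverse, that of NR0B2 and KLB (-0.59, and -0.26 after group means were removed), followed by FGFR4 and KLB (-0.46 and 0.05). Centred values here rank all pigs together, whereas the rho of the 6 pairs ranked pigs within their group. Points in these correlations share libraries and group structure, and every value given for a neighbouring gene was smaller after centring.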

How the data were processed

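Liver RNA of 60 pigs in 6 groups was examined. The authors prepared libraries with the NEBNext Ultra RNA kit, trimmed paired-end reads with fastp, aligned them to Sscrofa11.1 with HISAT2 2.0.5, and counted them per gene with featureCounts 1.5.0-p3, and the deposited values are whole-number read counts without normalization. StringTie 1.3.3 is also named in their notes. Whether strand was used in counting is not given in the sources used here. Gene lengths came from the same table. The 24 features without a gene name (0.00842% to 0.0407% of counts) were left out of totals and tests.

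Groups came from the sample titles. Genes were kept by filterByExpr, scaled by TMM, and tested in 1 edgeR 4.0.16 quasi-likelihood model of all 6 groups (R 4.3.3; robust=TRUE), with Benjamini-Hochberg adjustment over 16210 genes. The study named DESeq2 with a 2-fold cut, which were run as alternatives (DESeq2 1.42.0). CPM used TMM-scaled library sizes, except in the limits and floor given for FGF19, and log2 CPM a prior count of 2. Intervals of fold changes are at 95%. The floor was set at 3 counts. Correlations used 100000 permutations within groups (scipy 1.17.1), adjusted over 6 pairs. P values measure the spread between pigs, which the titles number within groups, with SLE-sham replicates 9 and 10 entered as separate pigs. The tests were tried on simulated data.

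The members, gene lists, and naming rule were chosen with earlier results of these data known. Named were all members, and CYP7A1, CYP8B1, ABCB11, SLC51A, SLC51B, RXRA, NR5A2, HNF4A, and FGF21. The rule also took up to 2 called genes per list and comparison with the smallest adjusted p, but only some of these are printed. Some named genes are given in comparisons where they did not meet it. DUSP6, albumin, RPL9, ABCB4, 4 ileal markers, CLDN4, SPP1, KRT7, KRT19, OSGIN1, DUSP5, and IER3 were also named where a result touched them, chosen after their values were seen. BAAT, CYP7B1, and MRGPRX4 were not analysed here, nor was TF, whose name stands on more than 1 feature. Same replicate numbers did not mark related pigs: over 82 pairs of libraries residual correlations ran from -0.231 to 0.381 (median -0.011). The identifier number of the titles (8 values) gave a mean of 0.133 against -0.018 for other pairs.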

Additional observations from a re-analysis of the deposited data

Results flagged for a closer look

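Among the 20 sets of 4 to 10 pigs in which the values of a member were examined for a stray pig, 1 was picked out. NR0B2 in MLE-BDL replicate 8 was 17.8 CPM, and the other 7 MLE-BDL pigs lay between 22.8 and 27.4 CPM, so the gap to its neighbour was 0.573 of the range of the group on the log2 CPM scale. In CPM the share was 0.52, which lies just under the limit used for 8 pigs. Chance picks out about 1 in 20 such sets. None of the 15 interaction tests of a member passed with all pigs, and 1 passed without ENT-BDL replicate 2, that of NR0B2 between SLE and ENT (0.73, adjusted p = 0.0405).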

How the results depend on the processing

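Of 60 log2 fold changes (5 members in 12 comparisons), 58 kept their direction and side of the threshold with RLE normalization, with at least 10 counts in every pig, and with DESeq2, 60 without a filter, 56 without both matching ENT libraries, 55 with edgeR on the groups compared, and 53 with the identifier block. With the replicate number as a block all 60 did, for example -0.78 for NR0B2 in ENT (adjusted p = 7.94e-04), and the numbers did not pair the pigs. The identifier block turned 4 values, KLB in the SLE minus ENT interaction to -0.03 and GPBAR1 to -0.10 for SLE-BDL minus SLE-sham, 0.07 for MLE-BDL minus ENT-BDL, and 0.03 in the MLE minus SLE interaction, and the cause was not tested. A required fold change above 2 left 0 members in every comparison. With BDL on SLE 0 members were called with the identifier block and with the groups compared alone. With BDL on MLE 1 was called with RLE, at least 10 counts, the identifier block, DESeq2, and without both matching libraries (NR1H4), and 1 with the groups compared alone (NR0B2). The last setting also gave 5 members for SLE-sham against ENT-sham and 1 for MLE-BDL against ENT-BDL. The correlation of KLB with CYP7A1 was 0.35 without both matching libraries and did not pass.

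Leaving out each pig in turn gave 2 to 3 members with BDL on ENT, 0 to 1 on SLE, 0 to 1 on MLE (1 in 38 of 60 fits), 2 to 4 for SLE-sham and 2 to 3 for MLE-sham against ENT-sham, 2 to 3 for SLE-BDL and 1 to 3 for MLE-BDL against ENT-BDL, and 0 to 1 for the SLE minus ENT interaction. Signs turned only near 0: NR1H4 in MLE-BDL minus SLE-BDL (-0.05 to 0.02) and in the MLE minus ENT interaction (-0.02 to 0.06), FGFR4 in MLE-sham minus SLE-sham (-0.03 to 0.03), KLB in MLE-BDL minus SLE-BDL (-0.06 to 0.10), and GPBAR1 in SLE-BDL minus SLE-sham (-0.03 to 0.18) and MLE-BDL minus SLE-BDL (-0.03 to 0.20). NR0B2 in MLE-BDL minus ENT-BDL passed in 6 of these fits. FGF19 could not be compared between groups at 1 read in 60 libraries, and the reason for its near absence was not tested.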
